A study of Mus musculus with 4 samples.

Results

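Polycomb proteins silence genes through 2 marks on chromatin, and 10 genes of this system were followed here in mouse embryonic fibroblasts (MEFs) with and without H3f3b, one of the genes for histone H3.3. They were the genes of the Polycomb repressive complex 2 (PRC2) core Ezh1, Ezh2, Eed and Suz12, the PRC2 partner Jarid2, the H3K27 demethylase gene Kdm6b, and Bmi1, Ring1, Rnf2 and Cbx7 of Polycomb repressive complex 1 (PRC1). Every probe that the platform annotation assigned to one of these genes was taken, which gave 14 probes of the 25697 on the array, for 10 of 16593 genes. The arrays were Illumina MouseRef-8 bead arrays hybridized with total RNA, 1 array per line. The knockout group held 2 H3f3b KO lines (H3f3b -/-) and the wildtype group 2 H3f3b WT lines, all grown from littermate embryos of strain C57BL6J at E12.5, the offspring of heterozygous parents.

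All 4 lines carried the stable retroviral vector pBabe puro, in KO and WT alike. The deleted allele had been made in the germline with Zp3-Cre, a transgene active in the oocyte, so that the KO embryos lacked H3f3b in every cell. The cultures were made from trunk tissue without the head or inner organs, and each line came from 1 embryo, so each group is 2 embryos and not 2 cultures of the same cells. A bulk array gives the mean of all cells on the plate, in which fewer cells of a type and less RNA per cell cannot be told apart.

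PRC2 places methyl groups on H3K27, a lysine in the tail of histone H3, with Ezh2 or Ezh1 as the enzyme and Eed and Suz12 as the subunits without which the enzyme is inactive. Kdm6b removes these methyl groups. PRC1 reads the mark through Cbx proteins such as Cbx7 and places ubiquitin on histone H2A through the pair of Bmi1 with Ring1 or Rnf2. In fibroblasts the pathway is best known for holding the Cdkn2a and Cdkn2b genes silent, whose products stop the cell cycle. H3.3 carries this lysine as the other H3 proteins do, and is itself a substrate of these enzymes.

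The labels of the arrays were borne out by the targeted gene. H3f3b had signals of 97.3 and 98.7 in KO MEFs, at the level of background, against 1736 and 1686 in WT MEFs, and was the 1 gene of 8047 tested with an adjusted p under 0.05 (0.0124% of genes). The KO arrays were brighter as deposited, with a mean signal of 381 and 382 in KO MEFs against 291 and 294 in WT MEFs and a median background of 97.1 and 94.6 against 80.9 and 84.4. Genotypes were therefore compared on normalized log2 intensities, for which background was subtracted and all arrays were brought to the same distribution. The labelled cell type was checked with 10 fibroblast markers, of which 9 were tested. Col1a1, a collagen gene that defines these cells, stood at 13.01 and 13.03 in KO MEFs against 13.03 and 12.82 in WT MEFs. It was the 1 fibroblast marker with a positive difference, as the other 8 were lower in KO, where 47.6% of all genes were.

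Of the 10 Polycomb genes, 6 were detected on all 4 arrays, each through at least 1 probe with a detection p under 0.05. These were Ezh2, Eed, Suz12, Kdm6b, Bmi1 and Ring1, with 7 probes. The other 4, Ezh1, Jarid2, Rnf2 and Cbx7, were at background, and Jarid2, Rnf2 and Cbx7 were detected on none of the arrays. In the plot of signal over background the probes fall into a detected and an undetected set that are the same in both genotypes, with 1 exception in Ezh1. None of the 6 tested genes passed an adjusted p of 0.05 in limma and 0 had an unadjusted p under 0.05, a level that 8.13% of all genes reached. The Polycomb transcripts thus showed no difference between genotypes that passed the test, and the 95% intervals of the ratio of KO to WT ran from as low as 0.561 (Ezh2) to as high as 1.53 (Kdm6b).

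**Figure D1:**
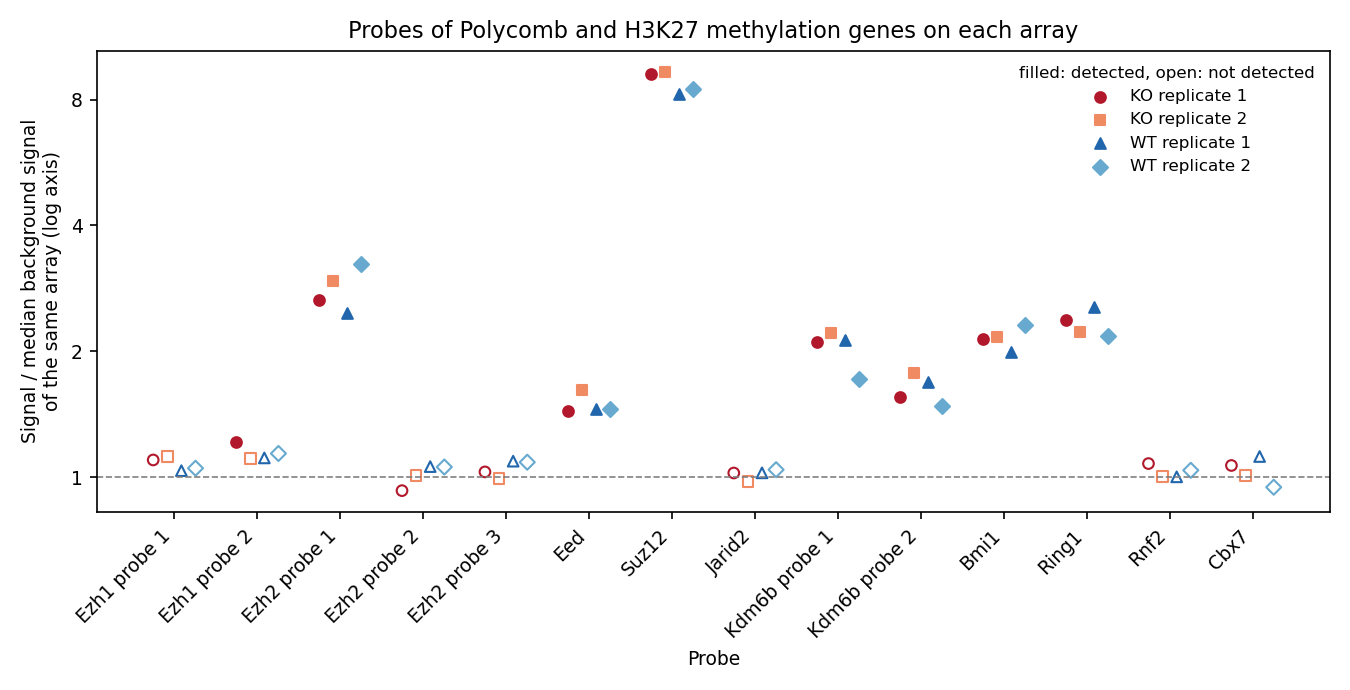
Deposited signal of each of the 14 probes divided by the median signal of undetected probes of the same array (log axis), for KO replicates 1 and 2 and WT replicates 1 and 2, with filled symbols where the detection p was under 0.05. The 7 probes of Ezh1, Jarid2, Rnf2, Cbx7 and of Ezh2 probes 2 and 3 lie near the dashed background line, and of these only Ezh1 probe 2 has a filled symbol, in KO replicate 1.

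Among the PRC2 core genes, Suz12, which encodes the zinc finger subunit that holds the complex together, was clearly above background on every array. It had signals of 893 and 883 in KO MEFs against 669 and 717 in WT MEFs, which became 9.45 and 9.43 against 9.46 and 9.59 in normalized log2 intensity. The higher raw signals in KO thus went with brighter arrays and were no longer seen after normalization. Both KO arrays lay below both WT arrays, although only just so for KO replicate 1 and WT replicate 1. Suz12 differed by -0.08 ± 0.17 log2 units (KO minus WT with its SE, n = 2 lines of each genotype, adjusted p of limma = 0.957), with a 95% interval for the ratio of KO to WT of 0.714 to 1.25.

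Ezh2, the main H3K27 methyltransferase of dividing cells, had 3 probes that did not agree in detection. Probe 1 was detected with signals of 257.6 and 278.9 in KO MEFs against 200.3 and 273.6 in WT MEFs, or 7.23 and 7.41 against 7.27 and 7.89 in normalized log2 intensity. KO replicate 2 lay above WT replicate 1, so the genotypes overlapped, and WT replicate 2 stood alone at the top. The mean was 7.32 ± 0.13 in KO MEFs and 7.58 ± 0.44 in WT MEFs (SD, n = 2 each), and the difference was -0.26 ± 0.24 log2 units (SE, limma adjusted p = 0.868, ratio interval 0.561 to 1.24). Ezh2 had the widest range over the 4 arrays of the 6 tested genes, at 0.66 log2 units. Probe 2 had signals of 90.1 and 95.5 in KO MEFs against 85.7 and 89.2 in WT MEFs, and probe 3 had 99.9 and 93.7 against 88.3 and 91.6. Neither was detected on any array (detection p from 0.202 to 0.966), so the statements on Ezh2 rest on 1 probe.

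Eed, the subunit that binds methylated H3K27 and stimulates the enzyme, was dim but detected on all arrays. Its signals were 139.5 and 153.2 in KO MEFs against 117.4 and 122.6 in WT MEFs, and its normalized log2 intensities 5.59 and 5.95 against 5.77 and 5.87. The KO lines enclosed both WT lines, and their distance from each other was larger than the mean difference of -0.05 ± 0.19 log2 units (SE, limma adjusted p = 0.979, ratio interval 0.703 to 1.33).

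Ezh1, the second H3K27 methyltransferase, which is known for its role in cells that no longer divide, was at the edge of detection. Its probe 1 had signals of 106.7 and 106.0 in KO MEFs against 83.8 and 88.6 in WT MEFs and was detected on no array. Probe 2 had 118.0 and 104.9 in KO MEFs against 89.9 and 96.1 in WT MEFs, and was called detected in KO replicate 1 with a detection p of 0.0263. The dimmest signal called detected was 114.4 on that array, so the call lay close to the limit, and no fold was computed for Ezh1. Jarid2, the partner that guides PRC2 to its targets, had signals of 99.3 and 92.2 in KO MEFs against 82.8 and 87.9 in WT MEFs, all within background (detection p from 0.469 to 0.870).

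The starts of the Ezh2 and Suz12 genes are shown because they are the 2 promoter windows of the set with a match to the motifs searched. They are taken from RefSeq (GRCm38.p6), 5′ to 3′ on the strand of the gene, and capitals mark a match to TTTGGCGC or TTTCCCGC, the 2 forms of the site of E2F cell cycle factors that were searched on both strands. The Ezh2 stretch is chr6:47595019-47595118 on the minus strand, with the match at positions 4 to 11 counted from 1 at a transcript start inside the annotated gene. The Suz12 stretch is chr11:79992856-79992955 on the plus strand, with the match at -219 to -212.
Ezh2: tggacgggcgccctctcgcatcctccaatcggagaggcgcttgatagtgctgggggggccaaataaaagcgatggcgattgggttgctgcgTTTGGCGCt
Suz12: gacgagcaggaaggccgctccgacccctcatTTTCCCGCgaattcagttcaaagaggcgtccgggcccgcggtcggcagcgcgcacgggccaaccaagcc
TTTGGCGC was found in 0.514% of 32851 promoter windows of 300 bases and TTTCCCGC in 1.07%, and 1.56% held either. Of the 10 windows for 9 of the Polycomb genes, 2 held a match. All 10 were rich in CpG, with 17 (Eed) to 41 (Suz12) CpG dinucleotides per window, where the median of all windows was 7 and 31.4% had at least 17. A match is a string of letters and was not tested as a binding site.

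Kdm6b, the H3K27 demethylase, known for its induction in macrophages, was measured by 2 detected probes. Probe 1, the brighter, had signals of 204.4 and 209.8 in KO MEFs against 172.6 and 144.5 in WT MEFs, and normalized log2 intensities of 6.71 and 6.78 against 6.92 and 6.39. Probe 2 had signals of 151.3 and 168.2 in KO MEFs against 136.8 and 125.1 in WT MEFs, and 5.87 and 6.23 against 6.28 and 5.94 on the normalized scale. On both probes WT replicate 1 was highest and the KO lines fell within the span of the WT lines or reached just below it. The differences of 0.09 ± 0.22 for probe 1 and -0.06 ± 0.21 for probe 2 (log2 units, SE, limma adjusted p = 0.964 and 0.973) had opposite signs and were both smaller than their errors. Kdm6b was the only tested gene of the set above 0, and the ratio interval of probe 1 was 0.741 to 1.53.

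**Figure D2:**
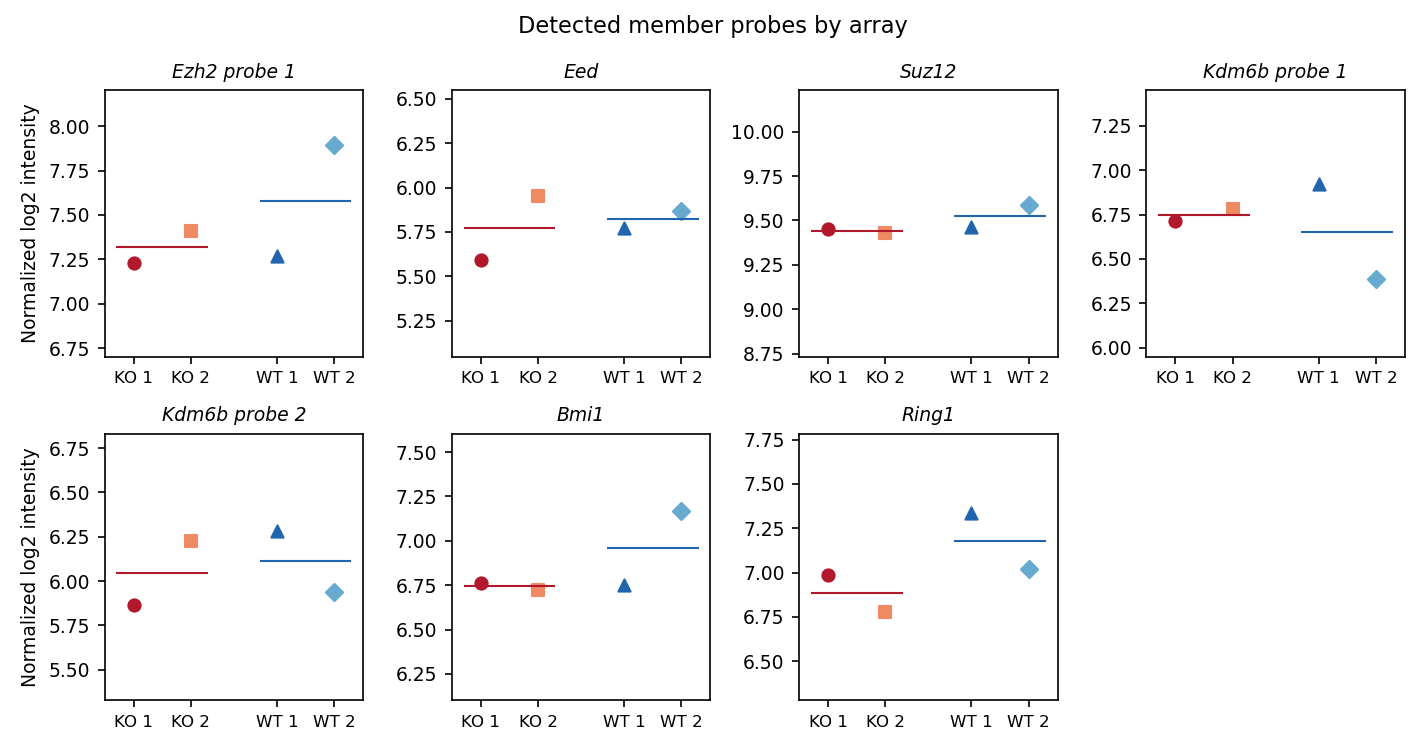
Normalized log2 intensity of the 7 detected Polycomb probes on each array (symbols) with the mean of the 2 lines of each genotype (horizontal lines), each panel spanning the same height in log2 units. WT replicate 2 is the highest array for Ezh2 probe 1, Suz12 and Bmi1 and the lowest for Kdm6b probe 1, and the genotypes are separate only for Suz12 and Ring1.

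Of the PRC1 genes, Ring1, one of the E3 ligases for histone H2A, had the largest difference of the set. Its signals were 230.7 and 210.1 in KO MEFs against 206.5 and 183.5 in WT MEFs, and its normalized log2 intensities 6.99 and 6.78 against 7.34 and 7.02. Both KO lines lay below both WT lines after normalization, with KO replicate 1 close to WT replicate 2. In the deposited signals both KO lines lay above both WT lines instead. The difference was -0.29 ± 0.19 log2 units (SE, limma adjusted p = 0.793), and its interval of 0.592 to 1.12 for the ratio of KO to WT was the one that reached least above equality. With median scaling of the arrays the difference of Ring1 was -0.0031, so its size depended on the normalization.

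Bmi1, the ring finger partner that raises the activity of the ligase and that keeps fibroblasts from early growth arrest, had signals of 208.3 and 205.2 in KO MEFs against 161.0 and 194.7 in WT MEFs. On the normalized scale these were 6.76 and 6.73 in KO MEFs against 6.75 and 7.17 in WT MEFs. Both KO lines and WT replicate 1 were thus almost level, and WT replicate 2 stood above them. The difference of -0.22 ± 0.20 log2 units (SE, limma adjusted p = 0.869, ratio interval 0.619 to 1.20) was -0.0063 without that array.

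Rnf2, the other E3 ligase, and Cbx7, a reader of the methyl mark, were not detected in any line. Rnf2 had signals of 104.6 and 94.8 in KO MEFs against 81.0 and 87.6 in WT MEFs (detection p from 0.276 to 0.728). Cbx7 had signals of 103.5 and 95.4 in KO MEFs against 90.6 and 79.8 in WT MEFs (detection p from 0.127 to 0.944). Ring1 was therefore the only one of the paired ligases with a measured transcript, which says that the Rnf2 probe gave no signal above its negative controls and not that the transcript was absent.

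The values of probes at background depended on how the arrays were scaled. As deposited, the median background was 97.1 and 94.6 in KO MEFs against 80.9 and 84.4 in WT MEFs. The signals of the 7 Polycomb probes left out of the tests were likewise higher in both KO arrays than in both WT arrays. The share of all probes left out was not counted for these signals, so nothing about the Polycomb genes is read from this. In the table that the authors had scaled to a common mean, the median background was 85.8 and 83.6 in KO MEFs against 93.8 and 96.6 in WT MEFs, and both KO arrays lay below both WT arrays in 79.5% of the 14145 probes left out of the tests and in 5 of the 7 Polycomb probes among them. After normalization the same was so for 17.3% of those probes and for 3 of these 7, and no difference is read from any of them.

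Set side by side, 5 of the 6 tested genes were lower in KO MEFs and 1, Kdm6b, was higher, where 47.6% of all genes were lower. Their median difference was -0.15 log2 units, against 0.01 for all genes. The median size of the differences, whatever their sign, was 0.15 for the set and 0.16 for all genes, and the largest, -0.29 in Ring1, was within the middle 90% of all genes (-0.44 to 0.47). The 2 genes whose arrays did not overlap, Suz12 and Ring1, were both lower in KO, where 38.2% of all genes had no overlap in either direction and 17.1% had both KO arrays below both WT arrays. The sign count did not hold under median scaling of the arrays, in which 1 of the 6 genes was lower, but that scaling moved the median of all genes to 0.28, and relative to it 5 of the 6 were still lower. Without WT replicate 2 the median of the set was -0.01, against 0.02 for all genes.

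**Figure D3:**
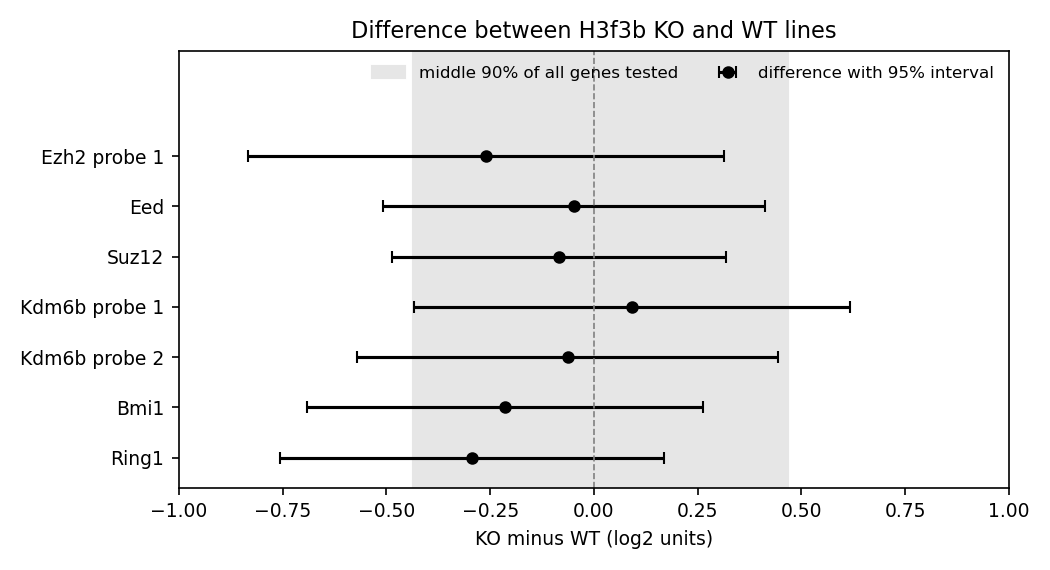
Difference between KO and WT lines (KO minus WT, log2 units) for the 7 detected Polycomb probes, with 95% intervals from the limma fit and the middle 90% of all 8047 genes tested as a grey band. Every interval includes 0, and the point estimates run from -0.29 (Ring1) to 0.09 (Kdm6b probe 1).

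The 6 transcripts were not all highest in the same line. Relative to its mean over the 4 arrays, Ezh2 stood at -0.22 and -0.04 in KO replicates 1 and 2 and at -0.18 and 0.44 in WT replicates 1 and 2, in log2 units. Bmi1 had -0.09 and -0.13 in KO MEFs and -0.10 and 0.32 in WT MEFs, with KO replicate 2 lowest. Suz12 was flatter, with -0.03 and -0.05 in KO MEFs and -0.02 and 0.10 in WT MEFs. These 3 genes were highest in WT replicate 2, as were 29.0% of all genes tested. Ring1 and Kdm6b were highest in WT replicate 1 instead, at 0.30 and 0.22 log2 units above their means, and Eed was highest in KO replicate 2, at 0.16. The division was made after the values were seen and was not tested.

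The mean of markers of dividing cells was highest in WT replicate 2, as Ezh2 was, but differed from it among the other lines. For Ezh2, KO replicate 2 (-0.04) lay above KO replicate 1 and WT replicate 1, while it was lowest for the mean of these markers. Among single markers, Mcm2, Rrm2 and E2f1 had KO replicate 2 above these lines as Ezh2 did, and the other tested markers did not. Of the 20 proliferation markers 13 were tested, and all 13 were highest in WT replicate 2, where 29.0% of all genes were. Their mean level relative to the 4 arrays was -0.15 and -0.19 log2 units in KO MEFs and -0.17 and 0.51 in WT MEFs. Their summed normalized intensity was 4621 and 4295 in KO MEFs against 4498 and 6846 in WT MEFs. Of the 13, 12 were lower in KO, where 47.6% of all genes were. Top2a, the DNA topoisomerase of dividing cells, stood at 8.42 and 8.14 in KO MEFs against 8.53 and 9.03 in WT MEFs. Mki67, Ccnb1 and Aurkb were not analysed here for want of a named probe, and Ccnb2, Ccna2, Bub1 and Pcna were not detected. The part of cell division in the values of Ezh2, Bmi1 and Suz12 was not tested. Without WT replicate 2 the difference of Ezh2 was 0.05 log2 units, and without WT replicate 1 it was -0.58 (limma adjusted p = 0.298), the lowest adjusted p reached by any of the 6 genes under the settings tried.

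Of all 8046 other genes, those with a profile nearest to that of Ezh2 over the 4 arrays were Iqgap3, a scaffold gene expressed in dividing cells, and Hnrnpa1, which encodes an RNA-binding protein, both at a root mean square distance of 0.028 log2 units. Snrpd1, a gene of the spliceosome core, followed at 0.030, then the transporter gene Slc4a8 at 0.041 and Socs4, a gene of the cytokine signalling inhibitor family, at 0.046. Each was highest in WT replicate 2 and lower in KO replicate 1 and WT replicate 1 than in KO replicate 2, as Ezh2 was. With 4 arrays, many of 8046 genes can come this close, and the likeness is a description only.

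MEF cultures can also hold macrophages. Of 13 macrophage markers 10 were tested, and all 10 had a positive difference, where 52.4% of all genes did. At an unadjusted p under 0.05 there were 5, a level that 4.59% of all genes reached in this direction, and 0 passed the adjusted test of limma. While 1693 of all 8047 genes had both KO arrays above both WT arrays, 8 of these 10 markers did. Their mean level relative to the 4 arrays was 0.49 and 0.07 log2 units in KO MEFs and -0.04 and -0.52 in WT MEFs, with a summed normalized intensity of 37918 and 29380 in KO MEFs against 25727 and 21764 in WT MEFs, while Ptprc, the pan-leukocyte marker, was not detected on any array and Cd68 and Csf1r were not analysed here. Of the 9 fibroblast markers 8 were lower in KO, where 47.6% of all genes were, with a median difference of -0.23 log2 units. Of these, 1 had an unadjusted p under 0.05, which 3.54% of all genes reached in this direction, and 0 passed the adjusted test. That 1 gene was Lum, a proteoglycan of the matrix, at 7.40 and 7.65 in KO MEFs against 8.29 and 8.60 in WT MEFs. The summed normalized intensity of the fibroblast markers was 30917 and 30393 in KO MEFs against 33170 and 29102 in WT MEFs. Kdm6b, which macrophages also express, was lowest in WT replicate 2 on probe 1, as the macrophage markers were, and highest in WT replicate 1, where those markers were not. Probe 2 of Kdm6b was lowest in KO replicate 1, where the mean of those markers was highest, and was likewise highest in WT replicate 1. The part of such cells in the values of the 6 genes was not tested.

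**Figure D4:**
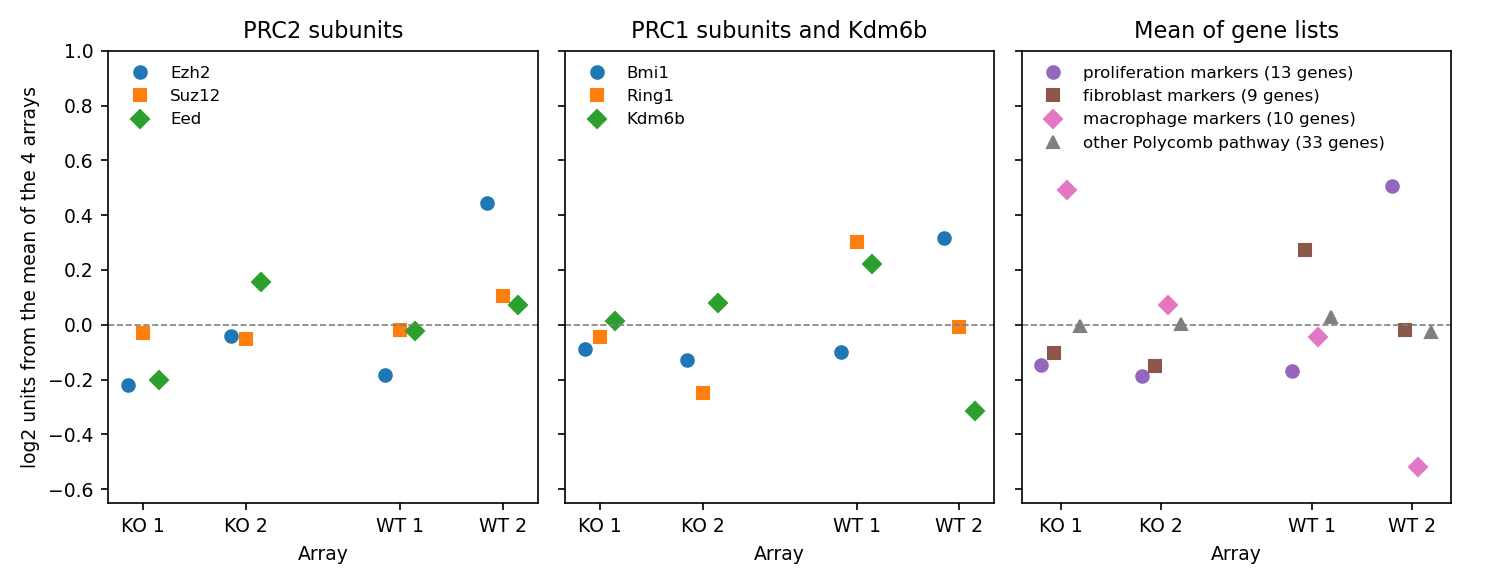
Level on each array relative to the mean of the 4 arrays (log2 units) for Ezh2, Suz12 and Eed (left), for Bmi1, Ring1 and Kdm6b (middle), and as the mean over tested genes of 4 gene lists (right), with KO replicates left of WT replicates. Ezh2 (0.44), Bmi1 (0.32) and the proliferation markers (0.51) are highest in WT replicate 2, where the macrophage markers are lowest (-0.52).

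The wider pathway was examined with 50 further genes, of which 39 had a named probe and 33 were tested. None passed an adjusted p of 0.05 in limma, and at an unadjusted p under 0.05 there were 1 higher in KO (Epop) and 1 lower (Uty), 2 of 33 where 8.13% of all genes reached this level. In sign, 17 were higher and 16 lower, their median difference was 0.02 log2 units, and 10 of the 33 had arrays that did not overlap, 4 higher and 6 lower, where 38.2% of all genes had none. Their mean level was within 0.03 log2 units of 0 on every array, but a mean over 33 genes varies less than a mean over 6. The negative median of the 6 Polycomb genes, which was -0.01 without WT replicate 2, was not seen in the wider list. Whether the 2 sets differ was not tested.

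Among 5 tested partners of PRC2, Epop, which joins PRC2 to elongin, had the largest difference, with 7.05 and 7.02 in KO MEFs against 6.41 and 6.68 in WT MEFs (difference 0.50 ± 0.18, SE, limma adjusted p = 0.574). The Polycomb-like genes Mtf2 (-0.30 ± 0.21, adjusted p = 0.801) and Phf19 (-0.23 ± 0.19, adjusted p = 0.850), which bring PRC2 to CpG-rich DNA, had negative differences that did not pass the test. Mtf2 was dim, with deposited signals of 139.4 and 131.7 in KO MEFs against 127 and 114.3 in WT MEFs. Phf19 had 116.8 and 117 against 105 and 100.8, so the deposited signals of Mtf2 and Phf19 were higher in KO. Of the 17 tested PRC1 subunits 11 were higher and 6 lower in KO, where 52.4% of all genes were higher, with a median difference of 0.10 and 0 at an unadjusted p under 0.05. Pcgf2, the closest relative of Bmi1, stood at 5.24 and 5.48 in KO MEFs against 6.01 and 5.64 in WT MEFs (-0.47 ± 0.20, limma adjusted p = 0.640). Auts2, a subunit of a PRC1 form linked to activation, differed by -0.41 ± 0.19 (limma adjusted p = 0.670). Pcgf2 and Auts2 were dim, with deposited signals for Pcgf2 of 126.9 and 132.9 in KO MEFs against 125.6 and 115.7 in WT MEFs. Auts2 had 107.3 and 113.3 in KO MEFs against 102.5 and 101.1 in WT MEFs, and was not detected in KO replicate 1. Its other probes were detected on no array. The lower values of Pcgf2 and Auts2 in KO were thus present after normalization and not in the deposited signals. Bcor, a PRC1 corepressor, had values of 6.91 and 7.04 in KO MEFs against 6.44 and 6.78 in WT MEFs (0.37 ± 0.19, adjusted p = 0.720).

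The other H3K27 demethylase genes of the Kdm6 family are sex-linked, and the lines differed in sex-linked transcripts. Kdm6a, on chromosome X, stood at 7.69 and 6.81 in KO MEFs against 7.30 and 7.24 in WT MEFs on its brighter probe and at 7.02 and 6.40 against 6.67 and 6.55 on the other. Both probes were highest in KO replicate 1 and lowest in KO replicate 2, and their differences between genotypes were -0.02 ± 0.29 and 0.10 ± 0.24 (limma adjusted p = 0.992 and 0.962). The signals of Xist, the RNA of X inactivation, were 181 and 107.4 in KO MEFs against 95.8 and 86.8 in WT MEFs. The Y-linked Eif2s3y had 98.0 and 244 in KO MEFs against 165.3 and 134.9 in WT MEFs. It was not detected in KO replicate 1 (detection p of 0.677) and was detected in the other lines. The authors labelled a karyotype of their line KO1 as XX. Uty, the Y-linked relative of Kdm6a, was dim, with signals of 114.6 and 116.3 in KO MEFs against 112.6 and 104.9 in WT MEFs, and its normalized values of 4.79 and 4.93 against 5.62 and 5.18 gave a difference of -0.54 ± 0.21 (limma adjusted p = 0.589). Its lower value in KO was thus present after normalization and not in the signals as deposited. The Uty probe was called detected in KO replicate 1 too (detection p of 0.0489), where Eif2s3y was not detected. It was little brighter in KO replicate 2, where Eif2s3y was brightest, so the probe did not clearly separate these lines. The part of the sex of the lines was not tested.

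Of the genes that oppose Polycomb, 2 of 4 tested H2A deubiquitinase genes and 3 of 5 genes of H3K27 acetylation and of the MLL and SWI/SNF groups were lower in KO. This was near the share of all genes, of which 47.6% were lower, and none passed the test. The deubiquitinase subunit Asxl2 had a difference of 0.28 ± 0.23 (SE, limma adjusted p = 0.842), Mysm1 of -0.29 ± 0.24 (0.852) and the enzyme gene Bap1 of -0.13 ± 0.17 (0.925). Asxl2 was dim and was not detected in WT replicate 2 (detection p of 0.378). Men1, a subunit of MLL complexes, had -0.19 ± 0.18 (adjusted p = 0.869), and the SWI/SNF genes Smarcb1 and Smarca4 had -0.24 ± 0.22 (0.869) and 0.19 ± 0.25 (0.917).

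The classical Polycomb targets of fibroblasts were detected in all lines. Cdkn2a, which encodes inhibitors of the cell cycle, stood at 8.61 and 9.26 in KO MEFs against 8.68 and 8.05 in WT MEFs on its brightest probe (0.57 ± 0.30, SE, limma adjusted p = 0.711) and at 8.09 and 7.96 against 8.20 and 7.66 on the other (0.09 ± 0.22, adjusted p = 0.964). Cdkn2b, its neighbour on chromosome 4 and likewise an inhibitor gene, stood at 10.05 and 10.43 in KO MEFs against 10.54 and 10.11 in WT MEFs (-0.08 ± 0.23, adjusted p = 0.966). The genotypes overlapped on all 3 probes. The order of the lines differed between the probes, since the brightest Cdkn2a probe was highest in KO replicate 2 and lowest in WT replicate 2, the other highest in WT replicate 1 and lowest in WT replicate 2, and Cdkn2b highest in WT replicate 1 and lowest in KO replicate 1.

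**Figure D5:**
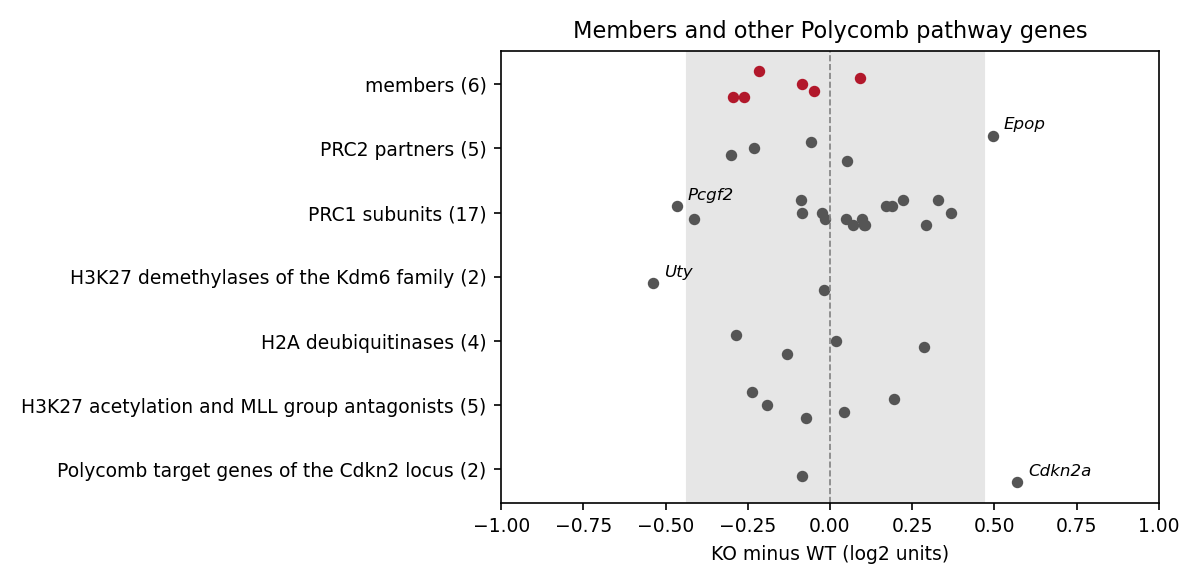
Difference between KO and WT lines (KO minus WT, log2 units) of the 6 tested Polycomb genes (red) and of the other tested pathway genes and target genes by list (grey points), 1 point per gene with vertical offsets for visibility only and the middle 90% of all genes as a grey band. The 6 genes lie between -0.29 and 0.09, and the genes outside of the band are Epop, Pcgf2, Uty and Cdkn2a, each with its name.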

How the data were processed

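Total RNA of 2 H3f3b KO and 2 WT MEF lines was measured on Illumina MouseRef-8 bead arrays. The deposited table holds, per probe and array, the signal intensity that the authors summarised in GenomeStudio, with neither background subtraction nor scaling, and a detection p-value that the authors' software derived from negative control probes. The authors also deposited intensity values scaled to a common mean, which served as an alternative. Slides and scan dates are not given in the sources used here.

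The unscaled signals were background-corrected by the normexp model from the detection p-values, with an offset of 16, quantile normalized and taken to log2 (neqc in limma 3.58.1, R 4.3.3). To be tested, a probe had to be detected (p under 0.05) on no fewer than 2 arrays, which left 11552 probes of 8047 genes. Probes were assigned to genes by the platform annotation with current symbols, which gave 23978 probes with 1 symbol, 0 with several and 1719 with none. The tested probe with the highest mean stood for a gene. KO and WT were compared in limma (a two-sided moderated test by lmFit and eBayes, with 2 degrees of freedom from the residuals and 4.86 from the prior, Benjamini-Hochberg over all probes tested, threshold 0.05). The script was tested on simulated data. Precision is limited by the number of arrays, and an exact permutation test of 2 against 2 cannot give a p below 0.333, so none was run on single genes.

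The Polycomb genes and all lists were chosen with earlier results of these data known. Named were all 10 Polycomb genes with every probe, H3f3b, up to 3 tested genes of each other pathway list with the smallest unadjusted p, Kdm6a, Uty, Cdkn2a, Cdkn2b, Mki67 and Top2a, and the 5 genes nearest to Ezh2 in profile. Col1a1, Lum, Ptprc, Cd68, Csf1r, Xist, Eif2s3y, Mcm2, Rrm2, E2f1 and the unmeasured or undetected proliferation markers were named outside of this rule. Line numbers are not stated to pair the littermates, and deviations of KO replicate 1 and WT replicate 1 from their group means correlated at -0.04 over 11552 probes, so the lines were not paired. Promoter windows came from RefSeq (GRCm38.p6) and matched 9 of the 10 genes. Alternatives were no background correction, an offset of 50, median scaling, the authors' scaled values, no detection filter, a stricter detection limit of 0.01 that all 4 arrays had to meet, eBayes with an intensity trend and robust variances, a replicate block, the mean over probes of a gene, and leaving out each array in turn.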

Additional observations from a re-analysis of the deposited data

How the results depend on the processing

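No Polycomb gene passed the adjusted test in any of 13 alternatives. Ring1 was below 0 in all 13, but at -0.0031 with median scaling. Median scaling moved the median of all genes to 0.28 log2 units and turned the sign of 4 genes, to 0.067 for Bmi1, 0.17 for Eed, 0.038 for Ezh2 and 0.24 for Suz12, so that 1 of the 6 genes was lower in KO. Relative to that median these were -0.21, -0.11, -0.24 and -0.04. Eed turned to 0.13 without KO replicate 1 (range over the arrays left out in turn, -0.22 to 0.13), Ezh2 to 0.052 without WT replicate 2 (-0.58 to 0.052), and Kdm6b to -0.18 without WT replicate 2 (-0.18 to 0.37). Bmi1 ranged from -0.42 to -0.0063, Ring1 from -0.46 to -0.14 and Suz12 from -0.15 to -0.02. Without WT replicate 1, 1 Polycomb gene (Ezh2) had an unadjusted p under 0.05. The number of genes without overlap of the genotypes was 2 of 6 with all arrays, where 38.2% of all genes had none. With an array left out, an arm with 1 array overlaps less easily. The share over all genes was not counted there, so no number is read. The lone line of a genotype is then assumed to vary like the lines of the other.

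Over all probes, 1 passed the test, 0 under the strict filter, which removes H3f3b because it is undetected in KO MEFs, 25 with an intensity trend and robust variances and 3 with the replicate block. With an array left out the number was 1 to 28, with 28 without WT replicate 1 and 2 without KO replicate 2. The replicate block changed no call of a Polycomb gene. Of the other pathway genes, 2 had an unadjusted p under 0.05, 1 higher and 1 lower. There was 1 with no background correction, with an offset of 50 and with the trend and robust variances (Epop, higher, in each case). With median scaling there were 5 of 33 pathway genes, all 5 higher, where 1812 of all 8047 genes were higher and 103 lower at this level. In the authors' scaled values there were 4 of 33 (1 higher, 3 lower), where 455 of all 8047 genes were higher and 475 lower. With no detection filter, 644 of all 16593 genes were higher and 523 lower, and there were 5 of 39 pathway genes (2 higher, 3 lower). With an array left out there were 0 to 7, with 0 without KO replicate 1 or KO replicate 2, 1 without WT replicate 1 and 7 without WT replicate 2 (2 higher, 5 lower). The cause was not tested, and the counts with an array left out are not compared here with those of all genes. Dim signals limit Ezh1, Jarid2, Rnf2 and Cbx7, for which no difference can be given.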
